A study of Mus musculus with 40 samples.

Results

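The dendritic cell genes *Flt3*, *Zbtb46*, *Batf3*, *Xcr1*, *Clec9a*, *Cd209a* and *Ccr7* were selected by symbol from the table of normalized counts, as 7 of the 54307 genes listed. Dendritic cells take up antigen, carry it to lymph nodes and present it to T cells. They are usually divided into a type 1 conventional lineage (cDC1), which cross-presents antigen to CD8 T cells and depends on BATF3 and IRF8, and a type 2 conventional lineage (cDC2), which primes CD4 T cells and depends on IRF4. Both lineages need the growth factor receptor FLT3 rather than the CSF1 receptor, on which microglia and most tissue macrophages depend. They sit in the choroid, the vascular layer under the retina, and are scarce in the neural retina.

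All 7 genes passed the filter of a mean of at least 1 normalized count in either tissue. The question was which of them keep their level in mice fed PLX5622 (PLX), an inhibitor of the CSF1 receptor given to deplete mononuclear phagocytes (MP). RNA came from choroid and retina of 20 mice, 40 libraries in all, taken 3 days after a laser had made 6 burns in each eye to start choroidal neovascularization. All mice were on a C57BL/6J background, carried floxed *Tgfbr2* alleles and received tamoxifen eye drops for 5 days from an age of 6 to 7 weeks, and both sexes were used. *Tgfbr2ΔEC* mice also carried Cdh5-CreERT2, a tamoxifen-inducible recombinase driven by an endothelial promoter, and controls were littermates without it. Mice 1 to 5 were control – PLX, mice 6 to 10 *Tgfbr2ΔEC* – PLX, mice 11 to 15 control + PLX and mice 16 to 20 *Tgfbr2ΔEC* + PLX, with the PLX diet given from the first tamoxifen drop to the end. The choroid samples were the central part with the lesions.

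The libraries held about 21449674 to 28553430 reads in choroid and 20960898 to 30544579 in retina, as estimated from the steps between low values, and 3 reads, the floor below which a value was not interpreted, had a worth in choroid of 2.68 to 3.58 normalized counts and in retina of 2.23 to 3.37. These limits cover counting error only. *Tgfbr2* overlapped between the genotypes in whole choroid. It was at 9836 to 10849 normalized counts in control – PLX and 8729 to 11303 in *Tgfbr2ΔEC* – PLX choroids (log2 difference -0.05, exact permutation test, p = 0.524), and at 9434 to 12801 and 10817 to 11999 with PLX (0.02, exact permutation test, p = 0.865). *Csf1r*, the gene of the receptor that PLX inhibits, fell from 8035 ± 640 to 3964 ± 530 normalized counts in choroid (SD, n = 10 mice per diet) and from 556 ± 163 to 60.5 ± 28.6 in retina (SD, n = 10). The choroid label fitted its marker, with *Rpe65* of the pigment epithelium at 28186 normalized counts in choroid and 500.0 in retina (means of 10 mice without PLX). Retinal RNA was present in the choroid samples. The summed level of 13 neural retina genes was 4616 to 29710 normalized counts in control – PLX and 50499 to 144315 in *Tgfbr2ΔEC* – PLX choroids, 5036 to 142151 in control + PLX and 8799 to 23268 in *Tgfbr2ΔEC* + PLX choroids.

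Over both genotypes, 4 of the 7 dendritic cell genes fell in choroid with PLX and 0 rose. The 4 were *Cd209a*, *Batf3*, *Ccr7* and *Flt3*, whose mean levels with PLX were 35.7%, 40.7%, 45.4% and 56.6% of those without. *Xcr1*, *Clec9a* and *Zbtb46* did not pass the test, with means of 89.6%, 74.3% and 122% of those without PLX. The value of *Clec9a* was 53.0% without mouse 11 and 64.8% to 80.0% without any other mouse. Of all 23619 genes tested in choroid, 5.06% fell and 2.07% rose, and the median log2 difference was -0.84 over the 7 genes and 0.00054 over all genes. Fewer dendritic cells, fewer other cells that carry these RNAs and less RNA of a gene per cell cannot be told apart in bulk tissue.

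**Figure D1:**
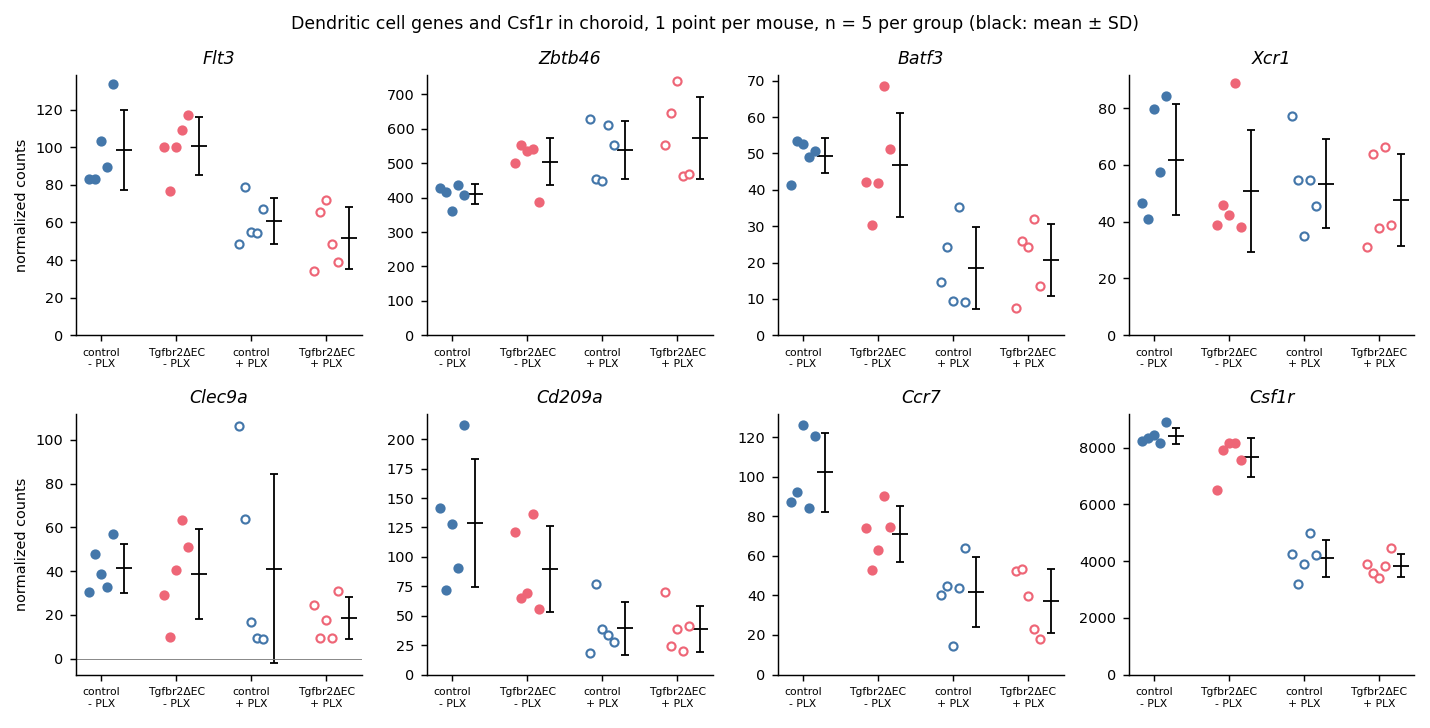
Normalized counts of the 7 dendritic cell genes and *Csf1r* in choroid, 1 panel per gene with its own scale on the vertical axis. Each point is 1 mouse (filled, without PLX; open, with PLX; blue, control; red, *Tgfbr2ΔEC*), and the black bars give the mean ± SD of 5 mice. The 10 *Csf1r* values with PLX, 3177 to 4986, lie below the 10 without, 6490 to 8902, whereas the diets overlap for each of the 7 genes (all 10 with PLX lay below all 10 without for 1.75% of all genes).

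The genes lie on separate chromosomes of GRCm39. All are protein-coding: *Flt3* (ENSMUSG00000042817) on chromosome 5 at 147267551 to 147337483, *Zbtb46* (ENSMUSG00000027583) on chromosome 2 at 181012111 to 181104879, *Batf3* (ENSMUSG00000026630) on chromosome 1 at 190830044 to 190841142 and *Xcr1* (ENSMUSG00000060509) on chromosome 9 at 123681380 to 123691094. *Clec9a* (ENSMUSG00000046080) is on chromosome 6 at 129385825 to 129401726, *Cd209a* (ENSMUSG00000031494) on chromosome 8 at 3793397 to 3798984 and *Ccr7* (ENSMUSG00000037944) on chromosome 11 at 99035022 to 99045911. As 4 of the 7 genes fell, the 250 bases before a start annotated in RefSeq were searched on both strands. The motifs were the PU.1 core GAGGAA, the longer PU.1 motif GAGGAAGT that contains it, the AP-1 motif TGANTCA and the IRF motif GAAANNGAA. RefSeq windows (build GRCm38.p6) were found for 6 of the 7 genes, all but *Ccr7*. The windows of 2 genes that fell, *Batf3* and *Cd209a*, and of 2 that did not pass the test, *Xcr1* and *Zbtb46*, are shown 5′ to 3′ on the strand of the gene, with motif matches in capitals.
Batf3 (chr1:191098164-191098413, plus strand): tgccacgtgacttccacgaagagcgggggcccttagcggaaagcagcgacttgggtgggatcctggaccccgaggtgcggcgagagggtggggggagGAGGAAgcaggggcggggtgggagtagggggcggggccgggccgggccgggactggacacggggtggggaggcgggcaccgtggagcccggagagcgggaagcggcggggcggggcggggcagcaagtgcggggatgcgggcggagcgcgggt
Cd209a (chr8:3748985-3749234, minus strand): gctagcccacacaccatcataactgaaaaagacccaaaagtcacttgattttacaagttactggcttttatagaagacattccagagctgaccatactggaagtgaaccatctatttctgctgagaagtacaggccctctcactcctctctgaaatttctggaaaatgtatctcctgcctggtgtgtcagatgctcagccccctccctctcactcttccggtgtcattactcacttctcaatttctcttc
Xcr1 (chr9:123862030-123862279, minus strand): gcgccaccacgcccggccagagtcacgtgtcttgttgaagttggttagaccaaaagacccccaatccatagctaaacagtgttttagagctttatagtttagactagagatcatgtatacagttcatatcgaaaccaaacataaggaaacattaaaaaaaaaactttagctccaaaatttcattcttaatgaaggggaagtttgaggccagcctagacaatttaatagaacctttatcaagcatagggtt
Zbtb46 (chr2:181424389-181424638, minus strand): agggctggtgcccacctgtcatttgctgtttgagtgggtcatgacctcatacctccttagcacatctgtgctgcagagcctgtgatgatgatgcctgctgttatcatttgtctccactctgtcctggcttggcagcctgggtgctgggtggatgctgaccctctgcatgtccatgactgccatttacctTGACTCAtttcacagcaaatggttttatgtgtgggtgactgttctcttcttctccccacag
The PU.1 core was found in the *Batf3* window, starting 153 bases before the window's end. The AP-1 motif was in the *Zbtb46* window, starting 61 bases before the window's end. The *Zbtb46* window ends in a pyrimidine-rich stretch and CAG, as an intron does before an exon. Whether each window lies before the first exon of its gene was not tested. The windows of *Cd209a*, *Xcr1*, *Flt3* and *Clec9a* held none of the 4 motifs. Among 32851 windows of this length, 23.3% held the PU.1 core, 2.44% the longer PU.1 motif, 6.75% the AP-1 motif and 7.13% the IRF motif.

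*Flt3* encodes the receptor for FLT3 ligand that drives the development of conventional dendritic cells. In choroid it was at 83.3, 83.0, 104, 89.4 and 134 normalized counts in the control – PLX mice and at 100.1, 76.5, 100.0, 109 and 117 in the *Tgfbr2ΔEC* – PLX mice, each in the order of the mouse numbers. With PLX it was at 48.5, 79.1, 54.9, 54.3 and 67.2 in controls and at 34.3, 65.8, 72.0, 48.5 and 38.8 in *Tgfbr2ΔEC* mice. Within either genotype the 5 mice with PLX lay below the 5 without, as for 3.27% of all genes in controls and 5.16% in *Tgfbr2ΔEC* mice, and over both genotypes the diets overlapped only through mice 7 and 12. The log2 difference over both genotypes was -0.84 (standard error 0.16, adjusted p = 0.00129, limma with Benjamini-Hochberg adjustment over all genes). The exact two-sided permutation test of diet within genotype gave p = 3.15e-05, the smallest it can give.

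*Batf3*, a transcription factor needed for cDC1, was at 41.2, 53.3, 52.7, 49.0 and 50.8 normalized counts in control – PLX and at 42.1, 30.3, 42.0, 68.7 and 51.2 in *Tgfbr2ΔEC* – PLX choroids. With PLX it was at 14.7, 24.2, 9.29, 35.3 and 9.10 in controls and at 7.53, 25.8, 24.3, 32 and 13.5 in *Tgfbr2ΔEC* mice. All control mice with PLX lay below all without, as for 3.27% of all genes, and in *Tgfbr2ΔEC* mice the diets overlapped at mice 7 and 19. The log2 difference was -1.40 (standard error 0.27, adjusted p = 0.00186, limma with Benjamini-Hochberg adjustment).

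*Zbtb46*, a transcription factor of conventional dendritic cells that endothelial cells also express, behaved otherwise. It was at 427, 417, 362, 437 and 407 normalized counts in control – PLX choroids and at 629, 455, 448, 610.3 and 554 in control + PLX choroids. In *Tgfbr2ΔEC* mice it was at 502, 553, 537, 542 and 387 without and at 552, 645, 739, 463 and 467 with PLX. The 5 controls with PLX lay above the 5 without, as for 0.936% of all genes, and the diets overlapped in *Tgfbr2ΔEC* mice. The log2 difference over both genotypes was 0.28 (95% interval 0.07 to 0.48, adjusted p = 0.106, limma with Benjamini-Hochberg adjustment), which did not pass the threshold. Under quantile normalization it did, at 0.34 (adjusted p = 0.0418). Of 14 endothelial genes tested beside it, 9 rose with PLX and 0 fell, with a median log2 difference of 0.28. Their summed level was 36243 to 41131 normalized counts in control – PLX, 38503 to 44957 in *Tgfbr2ΔEC* – PLX, 41087 to 59711 in control + PLX and 46069 to 51072 in *Tgfbr2ΔEC* + PLX choroids, and none of the 14 was at 0. Against *Cdh5*, the endothelial cadherin gene, the change of *Zbtb46* differed by 0.15 on the log2 scale (exact permutation test, p = 0.0571). *Cdh5* itself, at 0.13, changed less than the median of the endothelial genes, and no other endothelial gene was compared with *Zbtb46* in this way. The part of endothelial RNA in the *Zbtb46* values was not tested.

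*Xcr1* encodes the chemokine receptor that marks cDC1. It was at 46.5, 41.0, 79.7, 57.5 and 84.4 normalized counts in control – PLX choroids and at 38.8, 45.8, 42.3, 88.8 and 38.3 in *Tgfbr2ΔEC* – PLX choroids. With PLX it was at 77.2, 54.7, 34.9, 54.6 and 45.6 in controls and at 31.1, 63.7, 37.6, 66.4 and 38.9 in *Tgfbr2ΔEC* mice. The diets overlapped in both genotypes, between 41.0 and 77.2 in controls and between 38.3 and 66.4 in *Tgfbr2ΔEC* mice. The log2 difference was -0.14, with a 95% interval from -0.58 to 0.30 (adjusted p = 0.791, limma with Benjamini-Hochberg adjustment). The lower end of this interval lies above the estimates for *Flt3*, *Batf3*, *Cd209a* and *Ccr7*.

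*Clec9a* encodes a receptor on cDC1 for actin of dead cells. It was at 30.3, 47.9, 38.6, 32.6 and 57.1 normalized counts in control – PLX and at 28.9, 9.97, 40.3, 63.4 and 51.2 in *Tgfbr2ΔEC* – PLX choroids. With PLX it was at 106, 63.9, 16.9, 9.35 and 9.05 in controls and at 24.6, 9.19, 17.8, 9.17 and 31.1 in *Tgfbr2ΔEC* mice. The control + PLX mice split into the highest values of all choroids, in mice 11 and 12, and some of the lowest, in mice 14 and 15. The log2 difference of -0.80 had a 95% interval from -1.69 to 0.09 (adjusted p = 0.320, limma with Benjamini-Hochberg adjustment), and without mouse 11 it was -1.06 (adjusted p = 0.131, limma).

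*Cd209a*, the mouse DC-SIGN gene found on cDC2 and monocyte-derived dendritic cells, was at 142, 72.0, 128, 90.7 and 212 normalized counts in control – PLX and at 121, 65.0, 69.0, 137 and 55.6 in *Tgfbr2ΔEC* – PLX choroids. With PLX it was at 18.7, 77.3, 39.1, 33.3 and 28 in controls and at 69.9, 23.9, 38.9, 19.7 and 41.2 in *Tgfbr2ΔEC* mice. Only mice 12 and 16 with PLX reached the values without PLX. The log2 difference was -1.49 (standard error 0.28, adjusted p = 0.00116, limma with Benjamini-Hochberg adjustment). The gene belongs to a family of near copies, and reads shared among them could have been split by the authors' counting. Of the other family members, *Cd209f*, *Cd209g* and *Cd209b* went from means of 162, 65.0 and 44.2 normalized counts to means below the floor with PLX, and 12.2% of *Cd209d* and 55.9% of *Cd209c* were left. *Cd209e* was near the floor without PLX, at a mean of 3.83. By the exact permutation test the log2 fall of *Cd209a* was smaller than that of *Cd209d* by 1.2 (p = 0.0166), of *Cd209b* (p = 0.00022) and of *Cd209f* and *Cd209g* (p = 3.15e-05 for both), where the size of the difference depends on the pseudocount. The differences from *Cd209c* of -0.62 (p = 0.0916) and from *Cd209e* of -0.59 (p = 0.287, exact permutation tests) did not pass.

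*Ccr7* encodes the receptor by which mature dendritic cells and naive lymphocytes follow CCL19 and CCL21 to lymph nodes. It was at 87.1, 92.5, 126, 84.2 and 121 normalized counts in control – PLX and at 74.1, 52.9, 63.0, 90.3 and 74.4 in *Tgfbr2ΔEC* – PLX choroids. With PLX it was at 40.4, 44.9, 14.3, 44.0 and 63.7 in controls and at 52.1, 53.5, 39.6, 23 and 17.7 in *Tgfbr2ΔEC* mice. The controls with PLX all lay below those without, as for 3.27% of all genes, and in *Tgfbr2ΔEC* mice mouse 17 lay just above mouse 7. The log2 difference was -1.21 (standard error 0.24, adjusted p = 0.00255, limma with Benjamini-Hochberg adjustment).

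**Figure D2:**
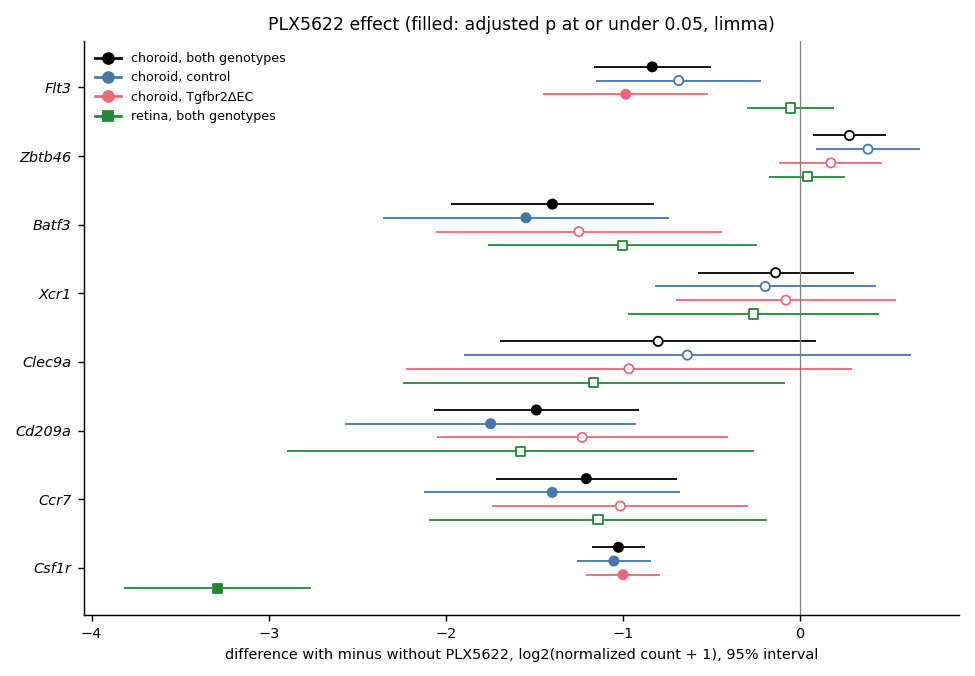
Difference with minus without PLX on the log2(normalized count + 1) scale (horizontal axis) for the 7 dendritic cell genes and *Csf1r* (rows), with 95% intervals. Circles are choroid (black, both genotypes; blue, control; red, *Tgfbr2ΔEC*), green squares are retina over both genotypes, and filled symbols passed limma's test (adjusted p of 0.05 or less). *Cd209a*, *Batf3*, *Ccr7* and *Flt3* have filled black circles between -1.49 and -0.84, *Xcr1* lies at -0.14, and in retina *Csf1r* alone is filled.

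Because a value past the threshold beside one that is not does not show that the genes differ, the change with PLX was compared between genes in the same choroids. All 21 pairs were compared by exact permutation of diet within genotype, a comparison chosen after the values had been seen, and 10 had an unadjusted p at or under 0.05. *Xcr1* changed less than *Batf3* by 1.26 on the log2 scale (p = 9.45e-05, exact permutation test), although both are tied to cDC1. It also changed less than *Cd209a* by 1.35 (p = 0.00113), than *Ccr7* by 1.07 (p = 0.000976) and than *Csf1r* by 0.89 (p = 0.000756, exact permutation tests). *Flt3* fell more than *Xcr1*, with a difference of -0.70 (exact permutation test, p = 0.00425). *Zbtb46* differed from *Csf1r* by 1.30 (exact permutation test, p = 3.15e-05). *Flt3*, *Batf3*, *Cd209a*, *Ccr7* and *Clec9a* did not pass against *Csf1r* (p = 0.32, 0.195, 0.155, 0.506 and 0.632, exact permutation tests). *Csf1r* itself, at -1.03, fell less than the median of the microglia and macrophage genes given below. These comparisons therefore do not show a fall as large as that of the depleted phagocytes. *Xcr1* and *Clec9a*, the cDC1 surface receptors, differed by 0.66, which did not pass (exact permutation test, p = 0.162).

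Within a genotype, fewer changes passed the test. In control mice *Cd209a* (log2 difference -1.75, adjusted p = 0.0108), *Ccr7* (-1.40, 0.022) and *Batf3* (-1.55, 0.0243) fell, and *Flt3* had a difference of -0.69 (adjusted p = 0.113, limma with Benjamini-Hochberg adjustment), where 3.15% of all genes fell. The call was lost for *Batf3* without any 1 of mice 2, 3, 5, 11, 13 and 15 (adjusted p 0.0553 to 0.0779, limma) and for *Ccr7* without mouse 3 or 5 (0.0632 and 0.0649, limma), and for both when only the libraries compared were fitted (0.0602 and 0.0674, limma). In *Tgfbr2ΔEC* mice *Flt3* fell (-0.98, adjusted p = 0.012, but 0.0547 under quantile normalization), and *Batf3* (-1.25, 0.0785), *Cd209a* (-1.23, 0.0900) and *Ccr7* (-1.02, 0.116) did not pass (limma with Benjamini-Hochberg adjustment), where 3.5% of all genes fell. The difference between the genotypes' responses to PLX passed for 0 of the 7 genes and for 0% of all genes, with adjusted p of at least 0.988 (limma), and 1552 of all genes were at an unadjusted p under 0.05. For *Flt3* that difference was -0.30 (95% interval -0.96 to 0.36), for *Batf3* 0.30 (-0.85 to 1.44), for *Cd209a* 0.52 (-0.64 to 1.68) and for *Ccr7* 0.38 (-0.64 to 1.41).

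The neural retina genes had a median log2 difference of -1.11 with PLX in choroid, although 0 of 13 passed the test. With their score as a covariate, the 4 falls over both genotypes still passed, at -0.75 for *Flt3* (adjusted p = 0.0109), -1.35 for *Cd209a* (0.00943), -1.42 for *Batf3* (0.00667) and -1.0 for *Ccr7* (0.0233, limma with Benjamini-Hochberg adjustment). In *Tgfbr2ΔEC* mice alone *Flt3* did not, at -0.81 (adjusted p = 0.202, limma). There the score did not overlap between the diets, so diet and retinal RNA cannot be told apart. With a sex score from the data as a covariate the same 4 genes passed, at -0.86, -1.43, -1.43 and -1.21 in that order.

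The other genes of the dendritic cell programmes were summarised by list. Of 13 cDC1 genes, 3 fell with PLX in choroid and 0 rose, with a median log2 difference of -0.24. The 3 were *Wdfy4*, a gene of cross-presentation (-1.80), *Irf8*, a transcription factor of cDC1 and monocytes (-1.17), and *Naaa* (-0.31). *Irf8* went from 994 ± 182 to 453 ± 149 and *Wdfy4* from 909.9 ± 207 to 272 ± 115 normalized counts (SD, n = 10 each). The other 10 did not pass, with differences from -0.56 (*Ifi205*) to 0.40 (*Ly75*), and *Itgae*, also known from cDC1, was at -0.01.

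Of 13 cDC2 genes tested, 9 fell and 1 rose, with a median of -1.54. Of these genes 6 were of the *Cd209* family (5 fell, median -3.48), some of which macrophages express, and the other 7 had a median of -0.92, with 4 that fell. The 9 included the C-type lectin genes *Mgl2* (-2.78) and *Clec10a* (-3.14), which macrophages also carry, *Sirpa* (-0.92) and 5 of the 6 other *Cd209* genes tested, and the gene that rose was *Klf4* (0.34). *Irf4*, the factor of the lineage, had a difference of -0.74 and did not pass (adjusted p = 0.117, limma with Benjamini-Hochberg adjustment). Of 16 genes shared by dendritic cells, 8 fell and 0 rose, with a median of -0.91. They were the MHC class II genes *H2-Aa* (-1.44), *H2-Ab1* (-1.42) and *H2-Eb1* (-1.66) with *Cd74* (-1.46) and *Ciita* (-1.03), and *Itgax* (-1.05), *Kmo* (-1.67) and *Haao* (-1.89).

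Of 19 genes of mature dendritic cells, 7 fell and 0 rose, with a median of -0.23. The costimulatory genes *Cd86* (-2.47), *Cd80* (-1.18) and *Cd40* (-0.92), *Cd83* (-1.72), *Samsn1* (-1.29), the chemokine gene *Ccl22* (-1.65) and *Tmem123* (-0.18) fell, whereas the other 12 did not pass, with differences from -0.65 (*Il12b*) to 0.19 (*Tnfrsf4*). Of 10 plasmacytoid genes, 3 fell, *Siglech* (-2.15), which microglia also express, *Ccr9* (-1.11) and *Irf7* (-0.84), and *Tcf4* rose (0.20). The genes of ligands and growth factors gave 0 calls among 6 tested, with *Flt3l*, the FLT3 ligand, at 0.18 (adjusted p = 0.33) and *Ccl19*, a CCR7 ligand, at 0.30 (adjusted p = 0.34, limma with Benjamini-Hochberg adjustment).

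**Figure D3:**
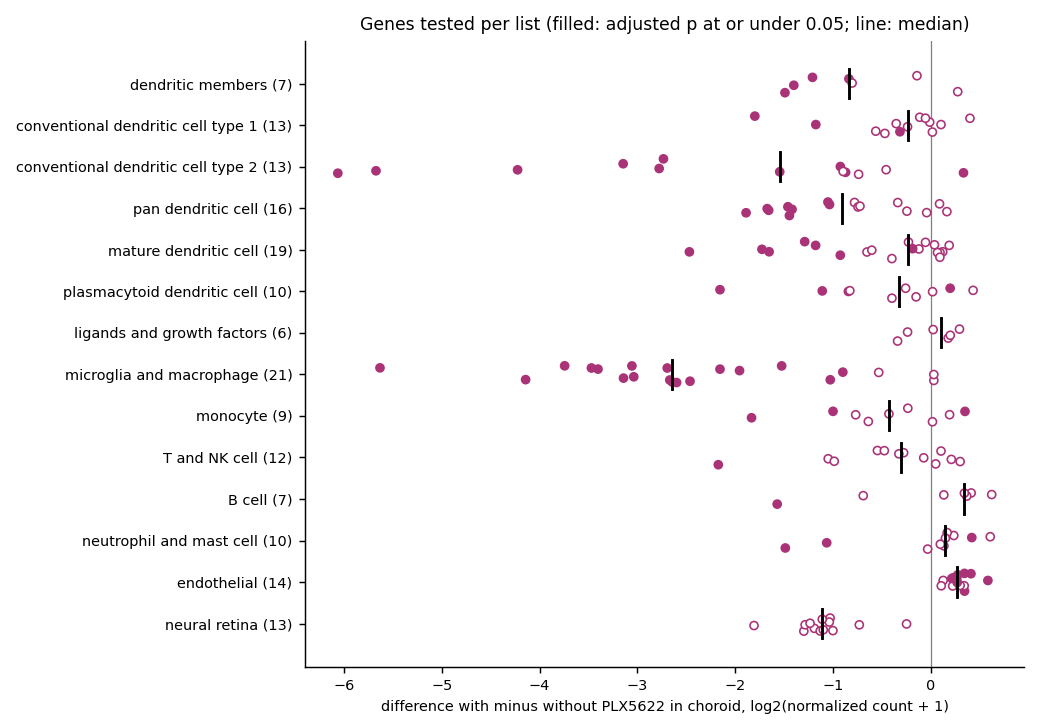
Difference with minus without PLX in choroid on the log2(normalized count + 1) scale (horizontal axis) for each tested gene of 14 lists (rows, number of genes in brackets). Each point is a gene, filled where its adjusted p in limma is 0.05 or less, and the black line is the median of the list. The medians lie at -0.84 for the 7 dendritic cell genes, -0.24 for cDC1, -1.54 for cDC2 and -2.64 for microglia and macrophage genes.

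Markers of other immune cells moved to different extents in the same choroids. Of 21 microglia and macrophage genes, 18 fell and 0 rose, with a median log2 difference of -2.64, and their summed level went from 49247 to 57854 without PLX to 14215 to 19108 with PLX, with none at 0 in a whole group. Of 9 monocyte genes, 2 fell (*Ccr2*, -1.83, and *Treml4*, -1.0) and *Ace* rose (0.35). Of 12 T and NK cell genes 1 fell, *Cd4* (-2.17), and the other 11 had differences from -1.05 (*Cd3d*) to 0.30 (*Klrb1c*) that did not pass. Of 7 B cell genes 1 fell, *Cd79b* (-1.57), and of 10 neutrophil and mast cell genes *Csf3r* (-1.06) and *Mmp8* (-1.49) fell and *Kit* (0.42) rose. The summed T and NK cell level was 377 to 638 normalized counts without and 190.2 to 351 with PLX, of which *Cd4*, a gene that macrophages and dendritic cells can also express, made up a mean of 292 and 72.8. The other 11 genes summed to 159 to 327 without and 125 to 275 with PLX. The B cell level was 225 to 538 and 114 to 456. Macrophages and monocytes can express several of the genes that fell, *Irf8*, *Itgax*, *Cd86* and the MHC class II genes among them, and their part in these changes was not tested.

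Levels were set side by side per kilobase of exon, taken over the union of all annotated exons. This union is 16348 bases for *Zbtb46* and 1583 to 6510 for the other dendritic cell genes. It can exceed the length of the transcript expressed and so understate the level, which makes the order approximate. Without PLX the order in choroid was *Cd209a* at 69.0 ± 30.5, *Ccr7* at 43.6 ± 11.6, *Batf3* at 30.1 ± 6.35, *Zbtb46* at 28 ± 4.28, *Flt3* at 15.3 ± 2.69, *Xcr1* at 12.6 ± 4.53 and *Clec9a* at 12.2 ± 4.75 normalized counts per kilobase (SD, n = 10). Neighbours in this order overlapped in their mean ± SD, except *Zbtb46* and *Flt3*. With PLX the means were *Zbtb46* at 34 ± 6.05, *Cd209a* at 24.6 ± 12.6, *Ccr7* at 19.8 ± 8.17, *Batf3* at 12.3 ± 6.28, *Xcr1* at 11.3 ± 3.45, *Clec9a* at 9.03 ± 9.64 and *Flt3* at 8.66 ± 2.23. There every pair of neighbours overlapped in mean ± SD. *Csf1r* stood at 1092 ± 87.0 without PLX, far above all 7.

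In retina, 6 of the 7 genes were lower than in choroid in both diets. *Xcr1*, *Batf3*, *Ccr7* and *Zbtb46* were higher in each of the 20 choroids than in any of the 20 retinas, as were 18.6% of all genes. *Batf3* reached 5.23, *Xcr1* 8.15, *Ccr7* 10.8, *Clec9a* 16.9 and *Cd209a* 26.3 normalized counts at most in a retina. All 10 retinas with PLX were at 0 for *Clec9a* and *Ccr7*, a count that allows up to 3 reads, but so were 6 and 5 of the 10 without PLX. *Cd209a* was above 0 in 6 retinas without PLX and in mouse 17 with PLX. Without PLX the choroid exceeded the retina by between 1.5 (*Zbtb46*) and 5.27 (*Ccr7*) on the log2 scale for these 6 genes and with PLX by between 1.74 and 5.2 (adjusted p at most 1.59e-09, limma with Benjamini-Hochberg adjustment), and the exact sign-flip permutation over 10 mice gave its smallest p of 0.00195 for each. All 7 genes were called higher in choroid without PLX, as were 37.7% of all genes.

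*Flt3* was the exception. Its mean in retina without PLX was 79.4 normalized counts, against 2.57 to 6.06 for *Xcr1*, *Clec9a*, *Batf3*, *Ccr7* and *Cd209a*. Which cells carry *Flt3* RNA in retina was not tested. In retina it was at 57.8 to 73.4 (median 66.2) normalized counts in control – PLX, 80.2 to 113 (median 89.1) in *Tgfbr2ΔEC* – PLX, 63.7 to 89.2 (median 78.4) in control + PLX and 62.0 to 87.1 (median 69.5) in *Tgfbr2ΔEC* + PLX mice. Without PLX choroid exceeded retina by 0.33 on the log2 scale (adjusted p = 0.0242), which was -0.18 under quantile normalization (adjusted p = 0.19, limma with Benjamini-Hochberg adjustment). It was also lost with a common total, at 0.20 (adjusted p = 0.172), and without mouse 5, 9 or 10 (0.27, 0.30 and 0.31, adjusted p 0.0525 to 0.0826, limma). With PLX choroid was lower than retina by a log2 difference of -0.45 (adjusted p = 0.0027, limma with Benjamini-Hochberg adjustment). The change with PLX differed between the tissues for *Flt3* alone among the 7, by -0.78 (95% interval -1.16 to -0.40, adjusted p = 0.0185, limma with Benjamini-Hochberg adjustment), as did 1.37% of all genes. By exact permutation of diet within genotype the p was 0.00129, and the limma call was lost without mouse 5 (-0.72), 14 (-0.74), 16 (-0.69) or 20 (-0.71), with adjusted p of 0.0541 to 0.0636.

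**Figure D4:**
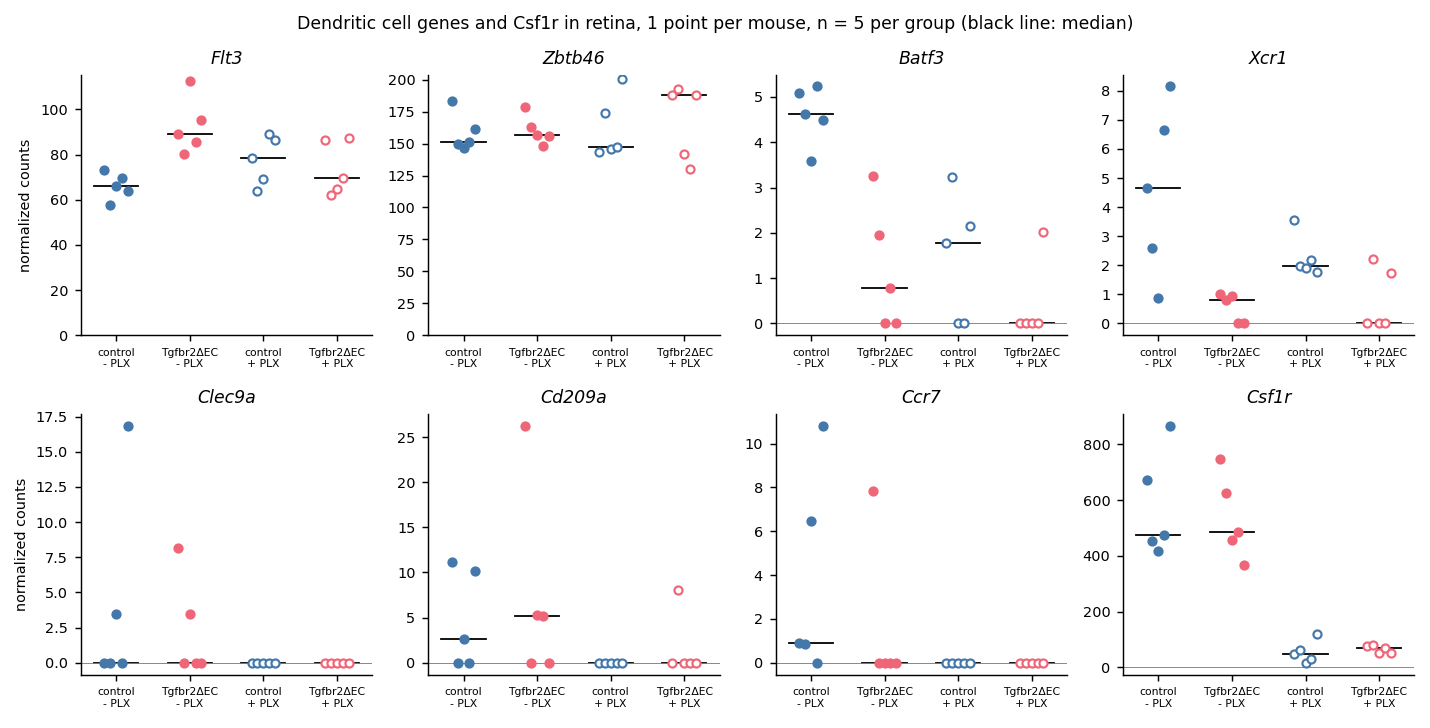
Normalized counts of the 7 dendritic cell genes and *Csf1r* in retina, 1 panel per gene with its own scale on the vertical axis. Each point is 1 mouse (filled, without PLX; open, with PLX; blue, control; red, *Tgfbr2ΔEC*), and the black lines give the median of 5 mice. *Flt3* and *Zbtb46* stay in the range of 57.8 to 201 in every group, and the other 5 dendritic cell genes lie between 0 and 26.3.

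In retina 0 of the 7 genes passed the test for PLX, where 1.09% of all genes did, and 7 of 7 had an adjusted p of at least 0.429 (limma with Benjamini-Hochberg adjustment). The log2 difference was -0.05 for *Flt3* (95% interval -0.30 to 0.19) and 0.04 for *Zbtb46* (-0.17 to 0.25), both well above the floor. For *Flt3* the difference was 0.22 in control and -0.32 in *Tgfbr2ΔEC* retinas, and these differed by -0.54 (95% interval -1.03 to -0.05, exact permutation test, p = 0.0135), which did not pass after adjustment over all genes (0% of which passed). For *Batf3* it was -1.01, for *Cd209a* -1.58, for *Ccr7* -1.14 and for *Clec9a* -1.17, with unadjusted p of 0.0119 to 0.0355 in limma. Their means were 2.90, 6.06, 2.69 and 3.19 normalized counts without PLX and 0.92, 0.80, 0 and 0 with PLX, in that order. They thus reached the minimum mean of 1 through the mice without PLX, and the filter favoured a fall. Of the 10 retinas without PLX, 6, 5, 3 and 4 in that order were above the floor, and of the 10 with PLX 1, 1, 0 and 0, with at most 25.5 reads in any retina. By exact permutation of diet within genotype p was 0.0117, 0.0403, 0.0238 and 0.0988 in that order. *Batf3* was at 3.58 to 5.23 normalized counts in the control retinas without PLX and at 0 to 3.24 in those with PLX, without overlap (exact permutation test, p = 0.00794, the smallest it can give), as for 1.16% of all genes. In the same retinas 18 of 21 microglia and macrophage genes fell, with a median of -3.44, while *Flt3l* was at 219 normalized counts without and 223 with PLX.

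Between *Tgfbr2ΔEC* and control mice 0 of the 7 genes passed the test in either tissue or diet. Of all genes, 0.00423% passed in choroid under either diet and 0% in retina, where 758 genes without PLX and 629 with PLX were at an unadjusted p under 0.05. *Ccr7* had the lowest exact p in choroid without PLX, at 102 ± 19.8 normalized counts in controls and 71.0 ± 14.0 in *Tgfbr2ΔEC* mice (SD, n = 5 each, exact permutation test, p = 0.0238). *Zbtb46* followed at 410.1 ± 29.1 and 504 ± 68.2 (SD, n = 5 each, exact permutation test, p = 0.0397), and both groups overlapped for either gene. Adjusted for the neural retina score, the log2 differences were -0.96 for *Ccr7* and 0.24 for *Zbtb46*, against -0.52 and 0.29 without it. This score did not overlap between the genotypes in choroid without PLX, so the adjusted values cannot separate genotype from retinal RNA.

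In retina without PLX, the 5 *Tgfbr2ΔEC* mice lay above the 5 controls for *Flt3*, at 92.5 ± 12.5 against 66.2 ± 5.92 normalized counts (SD, n = 5 each), and below them for *Batf3*, at 0 to 3.25 against 3.58 to 5.23. The exact permutation test gave its smallest p of 0.00794 for both, and such a complete separation was seen in 0.478% of all genes. *Xcr1*, at 0 to 1.02 in *Tgfbr2ΔEC* and 0.86 to 8.15 in control retinas, overlapped at the lowest control (exact permutation test, p = 0.0238). The *Batf3* values are at most 6.04 reads and the *Xcr1* values at most 11, and all 3 genes had an adjusted p = 0.985 in limma with Benjamini-Hochberg adjustment.

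The genes most like each member over the 20 choroids were found by Pearson's r on the log2 scale among 17531 genes with a mean of at least 10, as a description, since all values share libraries and diets. *Batf3* was closest to the MHC class II genes *H2-Ab1* (r = 0.90) and *H2-Aa* (0.89). *Cd209a* was closest to *Tmsb4x* (0.90), *Arpc5* (0.89) and *Arrb2* (0.87), *Flt3* to *Abhd15* (0.91), *Scimp* (0.91) and *B4galnt1* (0.89), and *Ccr7* to *Zfp268* (0.85), *Samsn1* (0.85) and *Arhgap15* (0.84). *Zbtb46* was closest to *Plekhg1* (0.84), *Rapgef5* (0.83) and *Fam114a1* (0.83). The best values were lower for *Clec9a*, with *Arrdc1* (0.81), *Brms1* (0.78) and *Tmem179b* (0.76), and for *Xcr1*, with *Ccdc38* (0.72), *Il2rb* (0.71) and *Atg10* (0.70). After the group means had been removed these partners of *Batf3* had r of 0.72 and 0.70, those of *Flt3* 0.70, 0.73 and 0.59, and those of *Xcr1* 0.72, 0.70 and 0.75.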

How the data were processed

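RNA-seq of choroid and retina from 20 laser-treated mice (40 libraries) was used. The authors made stranded polyA libraries, quantified single reads with Salmon 1.10.1 against GRCm39 and normalized them with DESeq2 1.36.0. The paper states that retina and choroid were analyzed apart after quantification. Whether the deposited values of both tissues share one normalization is not given in the sources used here, which limits the comparison of tissues. The deposited signal for each gene, called normalized counts here, is not in whole numbers. Whole reads could not be recovered (45.9% to 72.1% of the low values of a library lay within 0.1 of a whole read), so no count test was run. Depth, and the floor of 3 reads, were estimated from the steps between low values and cover counting error only.

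Here the deposited values were put on the log2(normalized count + 1) scale, which understates changes of low genes, and tested by limma (version 3.58.1, R 4.3.3), whose prior variance followed mean expression. A gene entered where its mean over a tissue's 20 libraries reached 1 (23619 in choroid, 23243 in retina), with the 4 groups in one fit, and 24317 genes over all 40 libraries entered the comparison of tissues. An adjusted p at or under 0.05 (Benjamini-Hochberg, over all genes) was called. Single genes were also compared by exact two-sided permutation tests (252 relabellings of 5 against 5, smallest p 0.0079, 63504 over both genotypes, and 1024 sign flips of 10 mice). Means are given ± SD. Scripts ran under Python 3.11.15 with scipy 1.17.1, numpy 2.4.6, pandas 2.3.3 and matplotlib 3.10.9.

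Groups came from the sample labels, and mouse numbers from the library names. That a choroid and a retina with the same number come from 1 mouse was inferred from these names. The deviations of the 2 tissues of a mouse from their group means correlated with r of -0.16 to 0.29 (median 0.126), and 14 of 20 choroids correlated best with the retina of their own number within the group. All 20 pairs matched in sex by expression. The mice were separate animals. Whether the eyes of a mouse were pooled is not given in the sources used here. The genes and lists were chosen with earlier results of these data known. Named are the 7 genes, *Csf1r* and *Tgfbr2*, the list genes summarised by counts with those of lowest p, and the 3 genes most correlated with each of the 7, of which 1 is not reported here. The other list genes named, *Cdh5*, *Rpe65* and the comparisons between pairs of genes were chosen after their values had been seen. 187 of 188 listed markers were matched. The lists of pigment cell, lymphatic and sex genes gave 0 of 9, 1 of 4 (*Flt4*, 0.37) and 0 of 5 calls for PLX in choroid. Alternatives were other pseudocounts (0.5 and 5), other minimum means (none and 10), a common total, quantile normalization, a robust variance, sex and neural retina scores as covariates, fits of only the libraries compared, a replicate block for the mouse and leaving out each mouse. The authors' covariates (sex, neuronal share) and their shrunken fold changes were left out. Promoter windows came from RefSeq (GRCm38.p6), positions from GENCODE on GRCm39.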

Additional observations from a re-analysis of the deposited data

Results flagged for a closer look

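Of 51 groups of 5 mice in which a member had any spread, 7 held a mouse set apart from its group by Dixon's criterion, which asks whether the gap to the nearest mouse is over 0.71 of the range of the group. Chance gives about 1 in 20 such groups for values without ties, which does not hold for the groups tied at 0. *Xcr1* in choroid of *Tgfbr2ΔEC* mouse 9 without PLX was at 88.8 normalized counts against 45.8 in the next mouse, a gap of 0.851 of the range, and without this mouse the change of *Xcr1* with PLX over both genotypes was -0.03. The other 6 were in retina: *Xcr1* in control mouse 11 with PLX (3.56 normalized counts, gap 0.776), *Clec9a* in control mouse 5 without PLX (16.9, gap 0.794) and *Cd209a* in *Tgfbr2ΔEC* mouse 6 without PLX (26.3, gap 0.8). In *Cd209a* of mouse 17 (8.02), *Batf3* of mouse 20 (2.01) and *Ccr7* of mouse 6 (7.84) the other mice of the group were equal at 0, so that the gap of 1 was fixed by the ties.

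The change of *Flt3* with PLX differed between choroid and retina by -0.781 on the log2 scale (adjusted p = 0.0185, limma with Benjamini-Hochberg adjustment), with -0.84 in choroid and -0.05 in retina.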

How the results depend on the processing

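The 4 falls in choroid over both genotypes (*Flt3*, *Batf3*, *Cd209a*, *Ccr7*) passed under all 9 alternatives and without any 1 of the 20 mice, with log2 differences over the mice left out of -0.90 to -0.77, -1.53 to -1.25, -1.63 to -1.38 and -1.30 to -1.04. Quantile normalization added *Zbtb46*, giving 5 calls. Fits of only the libraries compared left 1 call in control mice (*Cd209a*) instead of 3, as did leaving out a mouse (1 to 3 calls, lowest without mouse 3 or 5). In *Tgfbr2ΔEC* mice 0 calls were left in place of 1 under quantile normalization and after adjustment for the neural retina score, and 1 to 2 without a mouse (2 without mouse 13 or 16). The tissue difference of the PLX change kept 0 to 1 calls. The causes were not tested. The comparison of tissues with the mouse as a replicate block, the paired fit, gave 7 calls without PLX, 7 with PLX and 1 for the difference (*Flt3*, -0.78, adjusted p = 0.0195, limma) and changed no call of a member. The consensus correlation of the block was -0.0109, so this fit was close to the one without it. No paired analysis was possible within a tissue because the groups compared share no mouse.

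Signs changed for differences that did not pass. Under quantile normalization *Xcr1* was at 0.0016 for PLX in choroid over both genotypes and 0.17 in *Tgfbr2ΔEC* mice, *Flt3* at -0.11 for genotype in choroid without PLX, *Zbtb46* at -0.027 for the genotypes' difference in retina, and for the tissue difference *Ccr7* was at 0.10. *Flt3* for choroid against retina without PLX, which had passed, was at -0.18. With the neural retina score *Flt3* was at -0.14 and *Clec9a* at 0.39 for genotype in choroid and *Clec9a* at 0.0062 in retina without PLX. With the sex score *Flt3* was at -0.0028 for genotype in choroid and *Xcr1* at -0.038 for PLX in *Tgfbr2ΔEC* retinas. With a common total *Zbtb46* was at -0.016 for PLX in control retinas and -0.021 for genotype in retina without PLX. With other pseudocounts the tissue difference was -0.16 for *Clec9a* and -0.66 for *Cd209a* (5) and 0.31 for *Ccr7* (0.5).

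Leaving out each mouse in turn gave ranges that crossed 0. For the tissue difference they were -0.37 to 0.11 for *Ccr7*, -0.19 to 0.47 for *Cd209a* and -0.021 to 0.35 for *Xcr1*. For PLX they were -0.22 to 0.14 for *Xcr1* in *Tgfbr2ΔEC* choroids, -0.21 to 0.21 for *Xcr1* in *Tgfbr2ΔEC* retinas, and for *Zbtb46* in retina -0.00046 to 0.082 over both genotypes, -0.0033 to 0.14 in *Tgfbr2ΔEC* and -0.051 to 0.082 in control mice. For the genotypes' difference in the PLX change they were -0.74 to 0.18 for *Clec9a* and -0.021 to 0.33 for *Xcr1* in choroid, and -0.23 to 1.1 for *Cd209a*, -0.071 to 0.73 for *Clec9a* and -0.032 to 0.11 for *Zbtb46* in retina. For genotype in choroid without PLX they were -0.27 to 0.021 for *Batf3*, -0.51 to 0.13 for *Clec9a* and -0.020 to 0.15 for *Flt3*. With PLX they were -0.012 to 0.48 for *Batf3*, -0.47 to 0.090 for *Ccr7*, -0.24 to 0.28 for *Cd209a* and -0.019 to 0.15 for *Zbtb46*. For genotype in retina they were -0.46 to 0.73 for *Cd209a*, -0.73 to 0.071 for *Clec9a* and -0.019 to 0.075 for *Zbtb46* without PLX, and -0.010 to 0.13 for *Zbtb46* with PLX.

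Over all genes, calls for PLX went from 885 to 572 in control choroids with only the libraries compared, from 958 to 527 in *Tgfbr2ΔEC* choroids with the neural retina score, and at a minimum mean of 10 from 254 to 154 in retina and from 171 to 104 in control retinas. Genotype calls in choroid without PLX went from 1 to 303 with only the libraries compared and to 0 at a minimum mean of 10, and with PLX from 1 to 0 in 5 settings. Leaving out a mouse gave 1 to 411 genotype calls without PLX (411 without mouse 15) and 278 to 620 calls for the tissue difference in place of 332 (620 without mouse 15). In retina the values of 5 of the 7 genes rest on at most 25.5 reads.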
